A study of Mus musculus with 5 samples.

Results

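Peaks of histone H2A ubiquitination (H2AK119Ub) were compared between mouse haematopoietic progenitors transduced with PML-RARa and non-transduced progenitors. The comparison held all 1772 peaks of the PML-RARa list and all 1332 peaks of the non-transduced list, 3104 of the 5132 peaks in the 4 peak lists of the series. A peak of 1 list was called matched to a peak of the other when they shared at least 1 bp, and a peak with no such partner is called PML-RARa-only or non-transduced-only below. In both groups the starting cells were lineage-negative bone marrow cells of C57BL/6 mice with the genotype R26CreERT2;Ring1a-/-;Ring1bf/f;Cdkn2a-/-, enriched with a progenitor kit and kept in liquid culture. All groups of the series, the non-transduced one included, therefore lacked Ring1a and Cdkn2a and carried floxed Ring1b with a tamoxifen-inducible Cre, and the labels do not say whether Ring1b had been deleted. There was 1 library per group, and the labels give neither the number of mice nor a culture transduced without an oncogene, so PML-RARa and transduction itself cannot be told apart. The protocol text shared by all samples speaks of infected cells while the transduction label of the non-transduced sample is none; the label was followed here. Peak lists hold no expression values, so the identity of the cells was not checked against markers.

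PML-RARa is the fusion protein of acute promyelocytic leukaemia, in which the retinoic acid receptor alpha is joined to PML and acts mainly as a repressor of retinoid target genes. H2AK119Ub is the mark of Polycomb repressive complex 1 (PRC1), in which the ubiquitin ligase RING1A or RING1B does the catalysis, and lies in broad domains over silent developmental genes. Variant forms of PRC1 reach unmethylated CpG-rich DNA through the zinc finger protein KDM2B. Cdkn2a, which encodes the cell-cycle inhibitors p16INK4A and p19ARF, is itself a classical Polycomb target.

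The main pattern was a set of domains listed in both libraries and a larger number of narrower peaks listed in PML-RARa alone. Fewer peaks were listed in the non-transduced library alone. Their median width of 16.9 kb was closer to the 19.5 kb of matched non-transduced peaks. The excess of PML-RARa-only peaks went with the longer list: matching was mostly one-to-one, so the numbers of matched peaks on the 2 sides are tied. Lists of equal length therefore have nearly equal matched shares by construction. Among the best 1000 peaks of each list by score, 51.0% of PML-RARa and 51.7% of non-transduced peaks were matched. That likeness cannot decide whether the excess goes beyond list length. Of all 1772 PML-RARa peaks, 854 (48.2%, exact 95% interval 45.8 to 50.6) had a non-transduced partner and 918 (51.8%) had none. Of the 1332 non-transduced peaks, 854 (64.1%, interval 61.5 to 66.7) had a PML-RARa partner and 478 (35.9%) had none. The mostly one-to-one matching keeps the numbers of matched peaks close, and only their exact equality was a coincidence, since some peaks had several partners. Among PML-RARa peaks 813 had 1 partner, 40 had 2 and 1 had 3, against 815, 36 and 3 non-transduced peaks. Intervals here and below take each peak as independent and reflect counting error alone. With 1 library on each side no test between the groups was possible, and sequencing depth is unknown because the lists hold no read counts.

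In covered length the excess on the PML-RARa side was smaller than in peak number. PML-RARa peaks covered 35.7 Mb and non-transduced peaks 31.4 Mb, a ratio of 1.14, while the shared stretches added up to 17.0 Mb. That was 47.5% of the PML-RARa length and 54.0% of the non-transduced length, or 33.8% of the 50.1 Mb covered by either list. PML-RARa-only peaks held 14.2 Mb and non-transduced-only peaks 10.05 Mb. Inside matched peaks the stretches listed on 1 side alone were nearly balanced, at 4.56 Mb in PML-RARa and 4.40 Mb in the non-transduced library. The difference in covered length was thus held by the unmatched peaks and not by wider matched domains. It also depended on list length: with the best 1000 peaks of each list by score, the PML-RARa peaks covered 0.928 times the non-transduced length.

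PML-RARa-only peaks were narrow. Their median width was 12.7 kb (exact 95% interval of the median 12.1 to 13.4, quartiles at 7.55 and 20.1 kb), against 20.1 kb (19.3 to 21.3) for matched PML-RARa peaks. Non-transduced-only peaks had a median of 16.9 kb (15.6 to 18.4), against 19.5 kb (18.0 to 20.8) for matched non-transduced peaks. The median widths of matched peaks were thus similar in both libraries, and those of unmatched peaks lay farther apart. Matched peaks were chosen by overlap with each other, and how far this sets their likeness was not tested. Single pairs varied. Of 741 one-to-one pairs, the PML-RARa peak was at least 1.5 times wider in 151 and at least 1.5 times narrower in 109. At the narrow end, the PML-RARa list had 126 peaks under 5 kb, of which 118 were PML-RARa-only. The non-transduced list had 61 such peaks, of which 31 were non-transduced-only. At the wide end, 15 of 86 PML-RARa peaks over 50 kb and 24 of 108 non-transduced peaks over 50 kb had no partner. Both shares were below the 51.8% and 35.9% of all peaks in their lists. A wide peak also offers more bases at which a partner can touch it, and how far this sets these shares was not tested.

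**Figure D1:**
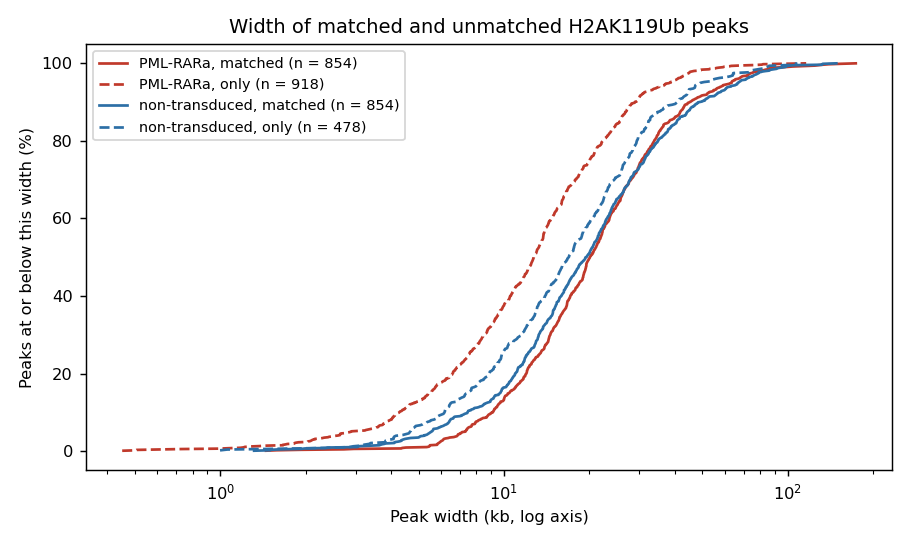
Cumulative share of peaks (y axis, percent) at or below each width (x axis, kb, log scale) for matched (solid) and unmatched (dashed) peaks of the PML-RARa library (red) and the non-transduced library (blue). The 2 solid lines run close together, and the PML-RARa-only line lies farthest to the left, with a median of 12.7 kb.

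Matching followed the score and, in the PML-RARa list, the width. The score is the authors' own value for each peak and was used only to rank peaks within their list. The 443 PML-RARa peaks with the highest scores were matched in 69.1% (64.5 to 73.4) and the 443 with the lowest in 29.6% (25.4 to 34.1). In the non-transduced list the upper 333 were matched in 85.3% (81.0 to 88.9) and the lower 333 in 45.3% (39.9 to 50.9). By width the PML-RARa list ran from 24.6% (20.7 to 28.9) in its narrowest quartile to 68.6% (64.1 to 72.9) in its widest quartile. The non-transduced list showed a flatter course, from 56.8% (51.2 to 62.1) to 71.2% (66.0 to 76.0). The widest quartiles of both lists were therefore matched in similar shares, with overlapping intervals. The narrowest quartiles were matched in 24.6% in PML-RARa and 56.8% in the non-transduced library. Quartiles were set within each list, so their bounds differed. The narrowest ran from 451 to 9729 bp in PML-RARa and from 998 to 11567 bp in the non-transduced list. The longer PML-RARa list also had the lower matched share as a whole.

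In the PML-RARa list, score and width each went with matching when the other was held above or below its median. Among PML-RARa peaks narrower than the median, 46.7% (41.5 to 52.0) of those with scores above the median and 25.2% (21.5 to 29.1) of those below were matched. Among wider PML-RARa peaks the shares were 72.5% (68.5 to 76.3) and 47.8% (42.5 to 53.1). In the non-transduced list the score separated the peaks in the same way, at 72.0% and 53.0% for narrow peaks and 78.8% and 51.3% for wide ones. Width made little difference there among low-scoring peaks, at 51.3% (45.2 to 57.3) for wide and 53.0% (47.9 to 58.0) for narrow ones.

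**Figure D2:**
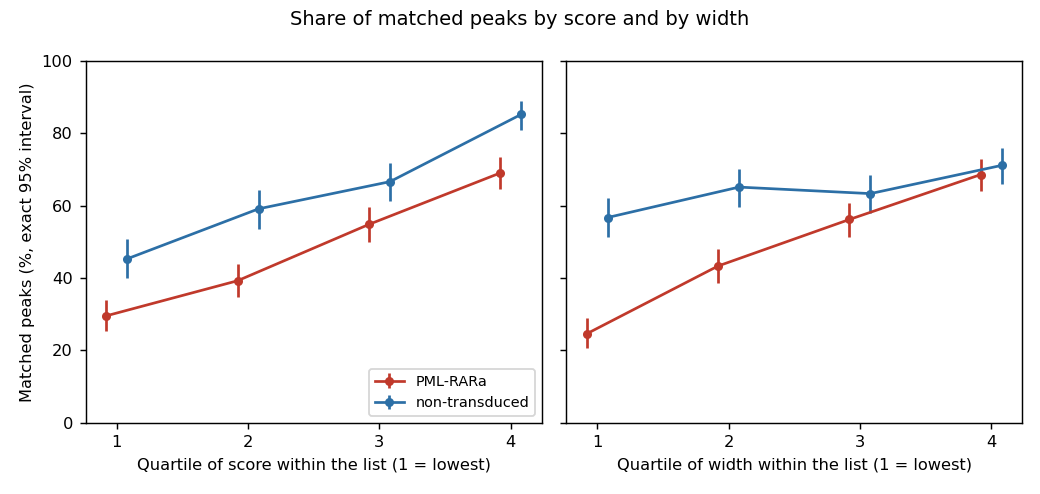
Share of peaks with a partner in the other list (y axis, percent, with exact 95% intervals) by quartile of score (left) and of width (right) within the PML-RARa list (red) and the non-transduced list (blue). Both lists climb with score, and the PML-RARa list climbs with width from 24.6% to 68.6%.

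The Hox clusters, textbook targets of Polycomb repression that encode homeobox transcription factors of body patterning and of progenitor self-renewal, were covered by broad peaks in both lists. An annotation of mm9 was not used here, so the positions of 4 Hox clusters and 4 further loci were taken from general knowledge of the mm9 map, and no peak was assigned to the start site of a gene. In windows of 300 kb around the HoxA, HoxB, HoxC and HoxD clusters, 10 of 11 PML-RARa peaks had a partner, against 48.2% in the whole list. Of 15 non-transduced peaks there 11 had a partner, against 64.1% in the whole list. PML-RARa covered 502.6 kb of these windows and the non-transduced library 495.3 kb, of which 422.6 kb were shared.

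At HoxA on chromosome 6, a peak at 52142117 to 52210269 in PML-RARa (68.2 kb, score rank 28 of 1772) faced one at 52141970 to 52210236 in the non-transduced library (68.3 kb, score rank 7 of 1332). Their ends differed by 147 and 33 bp. The PML-RARa list then broke for 940 bp and the non-transduced list for 1009 bp, and both went on with a second peak, at 52211210 to 52232317 in PML-RARa and 52211246 to 52235228 in the non-transduced library. Farther right the lists differed. PML-RARa peaks at 52238399 to 52252997 and 52254357 to 52279806 both overlapped 1 non-transduced peak, at 52250626 to 52277008. A further non-transduced peak at 52101568 to 52123951 (22.4 kb) had no PML-RARa partner, and no PML-RARa peak number was missing there. At HoxC on chromosome 15, 1 peak of 128.6 kb in PML-RARa lay wholly inside 1 of 133.1 kb in the non-transduced library. Apart from these, PML-RARa had a peak 121.7 kb to the right at 102995948 to 103021064 and the non-transduced library one 95.1 kb to the right at 102971205 to 102980437, and these did not touch.

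HoxB and HoxD differed mostly at their edges. At HoxB on chromosome 11, the central PML-RARa peak at 96110826 to 96196529 (85.7 kb) reached 17.2 kb farther right than its non-transduced partner at 96106629 to 96179318 (72.7 kb). A non-transduced peak of 16.1 kb at 96221293 to 96237396 lay 292 bp beyond the last PML-RARa peak of the cluster, the smallest gap of any unmatched non-transduced peak. At HoxD on chromosome 2, the PML-RARa peak at 74491905 to 74557368 (65.5 kb, score rank 19) covered 2 non-transduced peaks, of 48.1 and 2.39 kb, and ran 14.1 kb past the second. A non-transduced peak at 74580900 to 74592616 (11.7 kb) had no partner.

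At the loci of 4 transcriptional regulators of haematopoietic stem cell self-renewal, 0 of 6 PML-RARa peaks and 0 of 1 non-transduced peaks were matched; in the whole lists 51.8% of PML-RARa and 35.9% of non-transduced peaks were unmatched. They were Meis1, a homeobox cofactor of HOX proteins, Gata2, a zinc finger factor of stem and progenitor cells, Mecom, which encodes EVI1, and Prdm16, a relative of Mecom. PML-RARa had 6 peaks over 182.5 kb in windows of 300 kb (Meis1 and Gata2), 700 kb (Mecom) and 500 kb (Prdm16), and the non-transduced library 1 peak of 22.4 kb, with 0 kb shared. These loci and the Hox windows were picked with earlier results of these data known, so the counts are descriptions, and the difference between the 2 sets was not tested.

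At Meis1 on chromosome 11, PML-RARa had peaks at 18769242 to 18782980 (13.7 kb, score 1845, rank 31 of 1772) and at 18906186 to 18929349 (23.2 kb, score 1060). The nearest non-transduced peak was 3109.7 kb from the first, and no non-transduced peak number was missing across either, so no numbered call was left out of that list there. The HOXA9 list had 1 peak of 3.69 kb inside the first of these, and the MLL-AF9 list had none in the window. At Gata2 on chromosome 6, PML-RARa had 3 neighbouring peaks, at 88061675 to 88123973 (62.3 kb), 88135853 to 88160492 (24.6 kb) and 88161811 to 88206681 (44.9 kb), with scores from 841 to 1042. No non-transduced peak was listed there, although 1 non-transduced number was missing across that stretch, so an unlisted call could lie there. The MLL-AF9 library also had 3 peaks at Gata2 (141.7 kb) and the HOXA9 library 2 (55.6 kb).

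At Mecom on chromosome 3, PML-RARa had 1 peak at 30402473 to 30416211 (13.7 kb, score 928), with 1 non-transduced number missing there. A HOXA9 peak of 16.2 kb at 30402154 to 30418382 covered it, and MLL-AF9 had none in the window. At Prdm16 on chromosome 4 the sides were exchanged: the non-transduced library had a peak at 153995939 to 154018295 (22.4 kb, score 766), and PML-RARa had none and no missing number. An MLL-AF9 peak of 13.1 kb at 154005256 to 154018346 overlapped the non-transduced one, and HOXA9 had none in the window. A locus without a listed peak may still carry the mark at a level that gave no listed call.

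The DNA just before the start sites of these 4 genes is shown because CpG density is the sequence feature that variant PRC1 is known to read. The sequences are RefSeq promoters of build GRCm38.p6, matched by symbol and not placed on mm9, and give the 250 bases before the start on the strand of the gene, 5′ to 3′, with each CG in capitals.
Meis1: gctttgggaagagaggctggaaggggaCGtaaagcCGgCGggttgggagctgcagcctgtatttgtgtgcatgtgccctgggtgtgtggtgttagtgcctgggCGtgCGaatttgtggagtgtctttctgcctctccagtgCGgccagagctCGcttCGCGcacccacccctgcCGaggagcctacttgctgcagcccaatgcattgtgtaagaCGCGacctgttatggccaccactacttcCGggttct
Gata2: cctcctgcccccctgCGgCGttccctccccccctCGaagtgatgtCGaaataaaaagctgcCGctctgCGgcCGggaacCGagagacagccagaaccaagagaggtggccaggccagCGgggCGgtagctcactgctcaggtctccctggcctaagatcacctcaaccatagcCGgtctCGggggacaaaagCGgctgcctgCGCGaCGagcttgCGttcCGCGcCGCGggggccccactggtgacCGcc
Mecom: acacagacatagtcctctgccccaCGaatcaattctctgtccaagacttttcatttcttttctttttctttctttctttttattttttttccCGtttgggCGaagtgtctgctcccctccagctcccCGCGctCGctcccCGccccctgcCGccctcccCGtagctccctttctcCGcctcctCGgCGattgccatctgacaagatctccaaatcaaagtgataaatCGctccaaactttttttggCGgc
Prdm16: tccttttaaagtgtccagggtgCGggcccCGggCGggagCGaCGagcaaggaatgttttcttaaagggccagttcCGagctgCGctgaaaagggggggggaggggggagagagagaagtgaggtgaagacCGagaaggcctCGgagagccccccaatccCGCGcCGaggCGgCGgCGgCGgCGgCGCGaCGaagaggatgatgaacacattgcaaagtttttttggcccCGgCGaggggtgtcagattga
For Gata2 and Mecom, which have 2 listed starts each, the first is shown. The CG dinucleotide occurred 13 times before Meis1, 22 times before Gata2, 14 times before Mecom and 22 times before Prdm16. The median of all 32851 promoter sequences was 6 (quartiles at 2 and 16), and 92.1% held at least 1 CG. At least as many as in Meis1 were present in 31.5% of all promoters, and at least as many as in Gata2 in 14.8%. For the Hox genes, 22 of 39 had a promoter in the table, with 2 to 35 CG and a median of 12. The retinoic acid receptor half-site AGGTCA, searched on both strands, was in none of the 4 stretches shown, but was present before the second listed start of Mecom. It was also in 6 of the 22 Hox promoters and in 14.0% of all promoters.

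**Figure D3:**
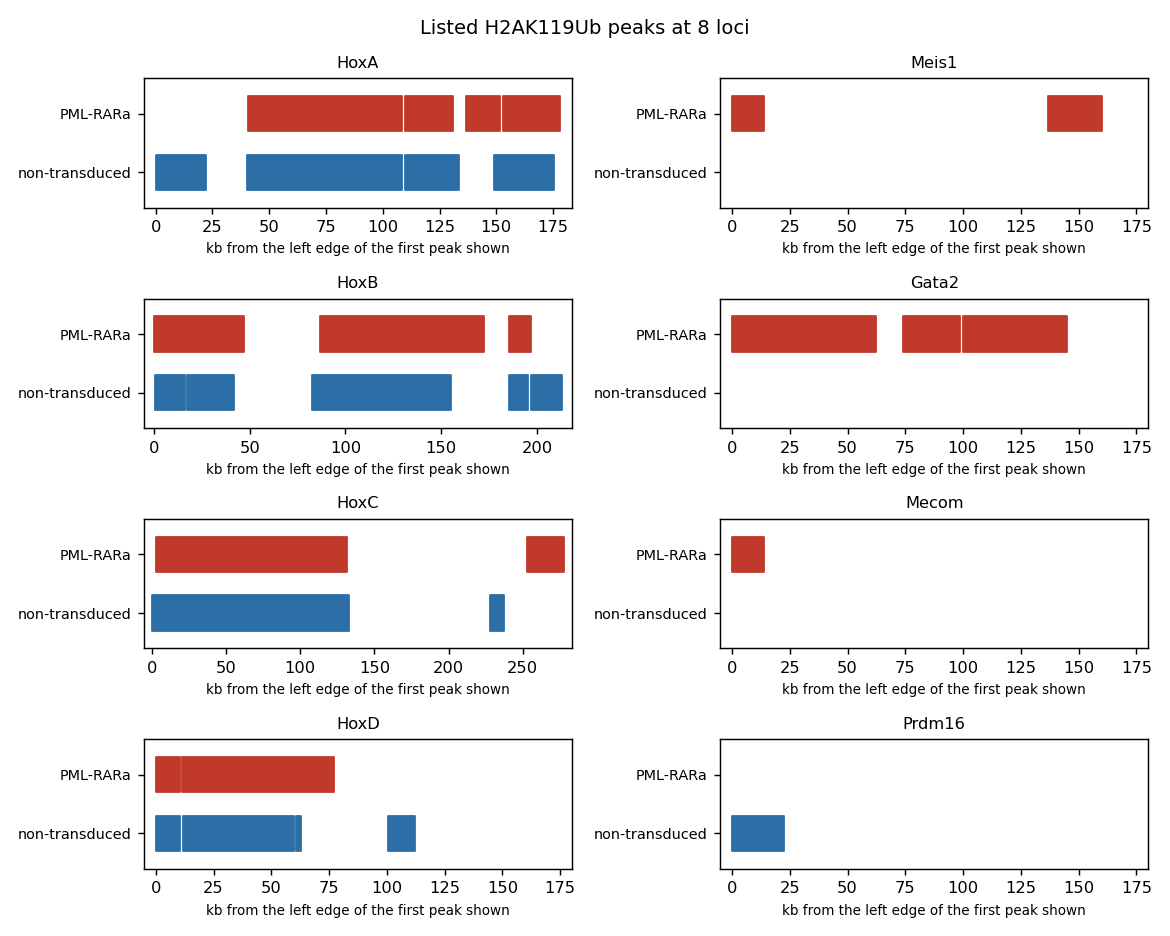
Listed peaks (bars) of the PML-RARa library (red, upper row) and the non-transduced library (blue, lower row) at 8 loci, drawn to scale within each panel in kb from the left edge of the first peak shown. The 4 Hox clusters (left) are covered in both libraries, Meis1, Gata2 and Mecom in PML-RARa only and Prdm16 in the non-transduced library only.

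In 741 one-to-one pairs, where a peak of each list overlapped only the other, domain widths were alike on average and variable from pair to pair. The median width was 19.4 kb in PML-RARa and 18.3 kb in the non-transduced library, with a median ratio of 1.03 (exact 95% interval 1.01 to 1.05). The PML-RARa peak was the wider one in 421 pairs (56.8%, interval 53.2 to 60.4) and the narrower one in 320. With the upper 50% of each list by score this share was 52.3% (46.7 to 57.8) and the interval of the median ratio 0.986 to 1.06, so neither lay clear of equal width. The spread between pairs was large: the quartiles of the ratio were 0.855 and 1.38, and 192 pairs (25.9%) lay within 10% of equal width. The PML-RARa peak was at least 1.5 times wider in 151 pairs (20.4%) and at least 1.5 times narrower in 109 (14.7%). Across the 741 pairs the widths had a Spearman correlation of 0.68, and the within-list scores one of 0.20. All pairs came from the same 2 libraries.

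In many pairs 1 end lay close to its counterpart, and both ends seldom did. At least 1 end lay within 500 bp of its counterpart in 387 of the 741 pairs, and both ends in 63. Neither end did in the pairs outside the 387. Left ends lay within 500 bp in 222 pairs and right ends in 228. Whether the left and right ends of a pair went together was not tested. The PML-RARa peak extended past its partner at both ends in 243 pairs and lay inside it in 156. In 183 pairs it was displaced to the left and in 149 to the right, and 10 pairs shared an end exactly. The shared stretch was 71.7% of the joint length in the median pair (quartiles at 52.5 and 87.7), and over 90% in 151 pairs. When pairs were ranked by the mean of both widths, the median ratio was 1.08 (1.04 to 1.13) in the narrowest quartile and 0.967 (0.901 to 1.01) in the widest.

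**Figure D4:**
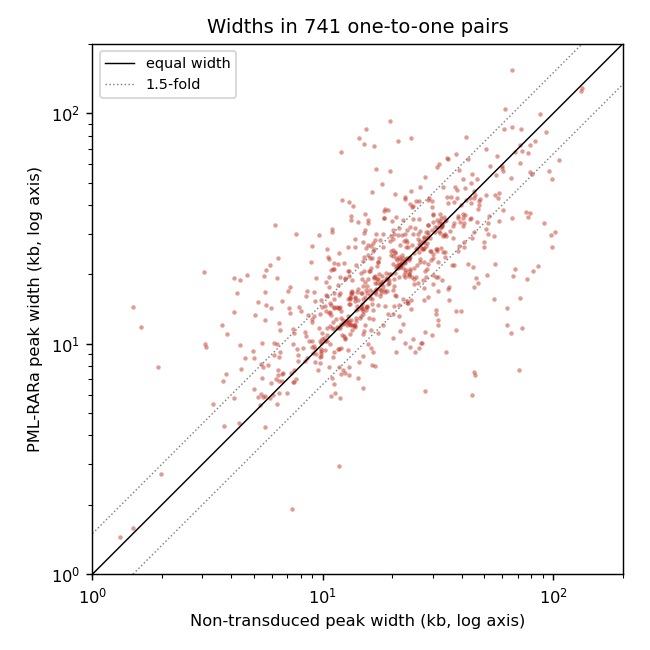
Width of the PML-RARa peak (y axis, kb, log scale) against that of its non-transduced partner (x axis, kb, log scale) in 741 one-to-one pairs, each a point. The solid line marks equal width and the dotted lines a 1.5-fold difference, beyond which lie 151 pairs above and 109 below.

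Among the 6 pairs with the best mean score rank, all were domains of 20 kb or more in both libraries. The first, on chromosome 15, spanned 88954187 to 89041315 in PML-RARa (87.1 kb, rank 1) and 88959562 to 89025974 in the non-transduced library (66.4 kb, rank 2). A second on chromosome 15 spanned 78453070 to 78577668 in PML-RARa (124.6 kb, rank 3) and 78445380 to 78577609 in the non-transduced library (132.2 kb, rank 5). On chromosome 19, a PML-RARa peak at 45280500 to 45337307 (56.8 kb, rank 10) enclosed the peak that ranked 1 in the non-transduced list, at 45295482 to 45334443 (39.0 kb). The HoxA peak described above was the next. The others were on chromosome 2 at 179828008 to 179848453 in PML-RARa, against 179829833 to 179852590 in the non-transduced library, and on chromosome 7 at 106401647 to 106431247 in PML-RARa, against 106411161 to 106444801 in the non-transduced library.

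In the 5 pairs with the largest width ratios, a shorter non-transduced peak lay whole inside the PML-RARa peak. On chromosome 7, the PML-RARa peak at 31851586 to 31919589 (68.0 kb, score rank 31) held a non-transduced peak of 11.95 kb at its right end (ratio 5.69), and the right ends differed by 120 bp. On chromosome 10, a PML-RARa peak of 85.3 kb at 77708039 to 77793305 held one of 15.3 kb (ratio 5.56). The 3 larger ratios, from 6.74 to 9.59 on chromosomes 3, 2 and 12, rested on non-transduced peaks of 1.499 to 3.03 kb, against PML-RARa peaks of 11.9 to 20.4 kb. In the other direction, a non-transduced peak of 71.0 kb on chromosome 2 at 157999213 to 158070201 held a PML-RARa peak of 7.65 kb (ratio 0.108). On chromosome 4, both peaks began at base 46050453, and the PML-RARa one ended after 5.98 kb and the non-transduced one after 44.2 kb (ratio 0.135). The next, on chromosomes 17, 9 and 8, had ratios of 0.160, 0.161 and 0.167, and on chromosome 8 the short PML-RARa peak at 124251104 to 124258652 ranked 90 of 1772 by score.

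Some domains were whole in 1 list and in pieces in the other. The PML-RARa peak with the most partners, on chromosome 16 at 18096393 to 18145178 (48.8 kb), held 3 non-transduced peaks of 21.1, 8.16 and 14.8 kb. The widest PML-RARa peak, 173.9 kb on chromosome 6 at 89252610 to 89426491, overlapped 2 non-transduced peaks of 132.2 and 75.2 kb. The wider of these 2 began farther left and also overlapped another PML-RARa peak of 32.7 kb, so both lists were in pieces there. Next in width among matched PML-RARa peaks were 153.7 kb on chromosome 18, over a non-transduced peak of 66.5 kb, and 139.4 kb on chromosome 8 at 114223107 to 114362539, over non-transduced peaks of 49.1 and 24.2 kb. On chromosome 11, 61409992 to 61543099 was 1 peak of 133.1 kb in PML-RARa and 2 peaks, of 39.3 and 91.8 kb, in the non-transduced library, with the same left end. In the opposite arrangement, the widest non-transduced peak, 148.5 kb on chromosome 2 at 166919842 to 167068380, met 3 PML-RARa peaks of 22.5, 29.1 and 14.99 kb. Further non-transduced peaks with 3 PML-RARa partners were on chromosome 1 at 75433644 to 75508747 (75.1 kb) and chromosome 7 at 25904837 to 25972674 (67.8 kb).

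PML-RARa-only peaks reached into the top of their list. The highest score among them, 2443 and rank 5 of 1772, was on chromosome 17 at 36364104 to 36372105 (8.002 kb), 498 kb from the nearest non-transduced peak. A peak on chromosome 12 at 56695322 to 56703340 (8.02 kb, rank 10) was 3995 kb from any non-transduced peak and was also listed in HOXA9 and MLL-AF9. The Meis1 peak of 13.7 kb was next. The following 5 were on chromosome 2 at 118795126 to 118810043, chromosome 17 at 39980015 to 39983632, chromosome 11 at 120388850 to 120407036, chromosome 5 at 105818081 to 105848321 and chromosome 3 at 69120935 to 69128436. Their scores ran from 1772 to 1825 and their widths from 3.62 to 30.2 kb. Among these 8 peaks a non-transduced number was missing at 6, and none at Meis1 and on chromosome 5. The widest PML-RARa-only peaks were 116.3 kb on chromosome 8 at 108465291 to 108581544, 97.0 kb on chromosome 9 at 69867471 to 69964420 and 81.8 kb on chromosome 5 at 114037071 to 114118902. The one on chromosome 9 lay 0.947 kb from a matched PML-RARa peak and 10.98 kb from the nearest non-transduced peak.

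Non-transduced-only peaks were led by a domain of 64.0 kb on chromosome 11 at 52066571 to 52130595, with a score of 1689 and rank 11 of 1332. The nearest PML-RARa peak lay 1493 bp beyond its edge, and no part of the domain was listed in PML-RARa. The next were on chromosome 2 at 156599367 to 156615407 (score 1628), chromosome 6 at 125367746 to 125368803 (score 1522, 1.06 kb wide) and chromosome 15 at 100698422 to 100712429 (score 1508). The remaining 4 of the best 8, on chromosomes 6, 4 and 7, had scores from 1358 to 1452 and lay 9.20 to 48.1 kb from a PML-RARa peak. No PML-RARa number was missing at 4 of these 8 peaks. The 3 widest non-transduced-only peaks were 108.3 and 105.5 kb on chromosome 7, at 151770085 to 151878385 and 151344935 to 151450432, and 101.7 kb on chromosome 2 at 166417575 to 166519255. None of these 3 was listed in HOXA9 or MLL-AF9, and no PML-RARa number was missing at any of them.

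Most unmatched peaks lay more than 50 kb from a matched peak of the same list. Distances between matched peaks were not summarised, so this is not shown to be particular to unmatched peaks. The median edge-to-edge distance to the nearest matched peak of the same list was 404.2 kb for PML-RARa-only peaks (exact 95% interval 340.7 to 469.1) and 225.6 kb for non-transduced-only peaks (178.9 to 269.6). Within 50 kb of a matched peak were 134 of 918 PML-RARa-only peaks (14.6%, interval 12.4 to 17.0) and 113 of 478 non-transduced-only peaks (23.6%, interval 19.9 to 27.7). Both lists had 854 matched peaks to be near to, and the order was the same at 10 kb (6.32% and 8.37%, with overlapping intervals) and at 200 kb (36.3% and 46.9%). The nearest peak of the other list was at a median of 231.7 kb for PML-RARa-only and 95.2 kb for non-transduced-only peaks. The lists differ in length, so a non-transduced peak had more PML-RARa peaks around it than the reverse.

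Unmatched peaks close to matched ones had greater median widths than distant ones in both lists. No intervals were computed for these medians. Distances ran from edge to edge, so a wider peak reaches nearer to its neighbours. How far this sets the widths was not tested. The median width was 17.5 kb for the 134 near and 12.4 kb for the 784 farther PML-RARa-only peaks, and 20.9 kb for the 113 near and 15.998 kb for the 365 farther non-transduced-only peaks. Their median scores hardly differed, at 924 and 928 in PML-RARa and 839 and 844 in the non-transduced library. At the boundary of the match rule, the smallest shared stretches were 1316 bp on chromosome 6, where a non-transduced peak of 1.32 kb lay whole inside a PML-RARa peak of 1.45 kb, and 1326 bp on chromosome 10. Just outside it, a PML-RARa peak at 12869803 to 12880862 on chromosome 8 ended 490 bp before a non-transduced peak of 85.1 kb, and a PML-RARa peak at 73618642 to 73640710 on chromosome 13 lay 649 bp from its neighbour.

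Unmatched peaks of both lists formed runs, in similar shares. When unmatched peaks up to 100 kb apart were joined where no peak of the other list lay between them, PML-RARa had 114 runs of 2 or more peaks with 268 of its 918 unmatched peaks (29.2%). The non-transduced list had 58 runs with 128 of 478 (26.8%). Runs of 3 or more numbered 29 in PML-RARa and 8 in the non-transduced list. These counts come from 918 and 478 unmatched peaks. PML-RARa runs could be broken by 1332 non-transduced peaks, and non-transduced runs by 1772 PML-RARa peaks. How far this sets the counts was not tested. The longest was on chromosome 13 at 37030401 to 37367727, with 8 PML-RARa peaks over 133.1 kb, none of them listed in HOXA9 or MLL-AF9, and 1 non-transduced number missing across the whole stretch. Next was chromosome 4 at 140408980 to 140583038, with 5 PML-RARa peaks over 93.1 kb, of which 3 were also in MLL-AF9. A run of 4 on chromosome 14 at 69938454 to 70108596 covered 123.3 kb with scores from 1272 to 1474, and another on chromosome 6 at 48603785 to 48700512 covered 74.5 kb with no non-transduced number missing. The longest non-transduced runs had 4 peaks, the widest of them on chromosome 7 at 152164267 to 152431299, with 157.6 kb covered and no PML-RARa number missing.

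By chromosome, PML-RARa had more peaks than the non-transduced library on all 19 autosomes and a greater covered length on 13 of them. Among the autosomes the ratio of peak numbers was highest on chromosome 13, with 71 PML-RARa and 32 non-transduced peaks (ratio 2.22) and 1.097 Mb covered in PML-RARa against 0.538 Mb in the non-transduced library. It was lowest on chromosome 1, with 68 PML-RARa and 65 non-transduced peaks (ratio 1.05) and 1.09 Mb covered in PML-RARa against 1.34 Mb in the non-transduced library. The matched share of PML-RARa peaks was 35.2% (24.2 to 47.5) on chromosome 13 and 58.6% (49.6 to 67.2) on chromosome 7, the lowest and the highest autosome. The matched share of non-transduced peaks was lowest on chromosome 9, at 47.7% (36.8 to 58.7), and highest on chromosome 18, at 79.3% (60.3 to 92.0). For each list, 17 of the 19 autosomes had an interval that held the share of the whole list. Chromosome X had 6 PML-RARa and 2 non-transduced peaks, none matched. The PML-RARa peaks farthest from the other list were there, at 11639474 to 11674600 and 11696922 to 11721740, 59.2 Mb from a non-transduced peak. Away from chromosome X, the non-transduced-only peaks farthest from any PML-RARa peak were on chromosome 1 at 127368119 to 127380874, at 4855 kb, and on chromosome 15 at 64750472 to 64756484, at 4094 kb.

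**Figure D5:**
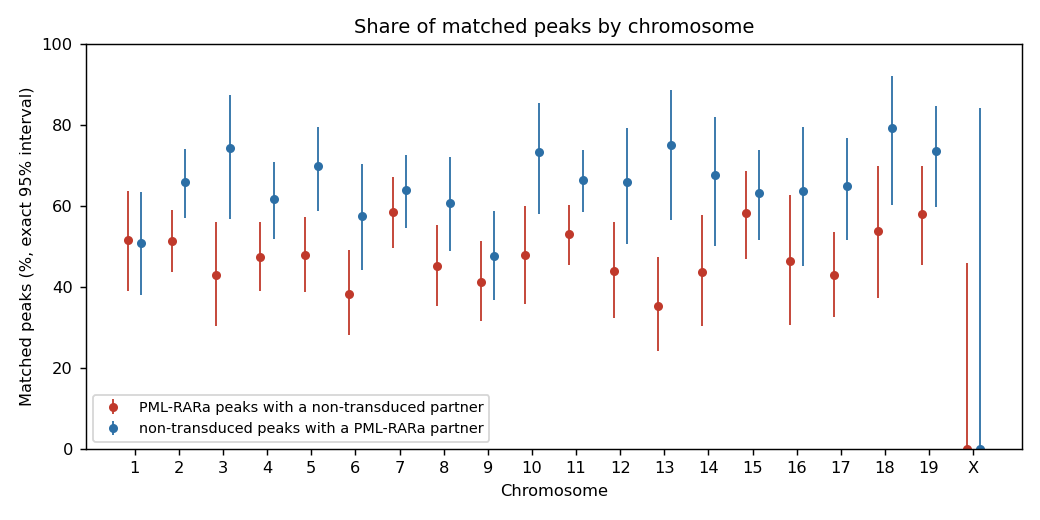
Share of PML-RARa peaks with a non-transduced partner (red) and of non-transduced peaks with a PML-RARa partner (blue) on each chromosome (x axis), in percent with exact 95% intervals. Points for PML-RARa lie below those for the non-transduced library on 18 of 19 autosomes, and no peak on chromosome X was matched. PML-RARa had more peaks on all 19 autosomes and the matched numbers were close, so the lower points restate the difference in peak number.

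The HOXA9 and MLL-AF9 lists, which the matching did not use, gave a further view of the unmatched peaks. Of the 918 PML-RARa-only peaks, 281 (30.6%, interval 27.6 to 33.7) overlapped an MLL-AF9 peak, against 72.6% (69.5 to 75.6) of the 854 matched PML-RARa peaks. The share with a HOXA9 peak was 14.3% (12.1 to 16.7) for PML-RARa-only and 42.9% (39.5 to 46.3) for matched PML-RARa peaks. The HOXA9 list held 620 peaks and the MLL-AF9 list 1408, so the lower shares with HOXA9 do not measure likeness. Matched PML-RARa peaks were wider than PML-RARa-only peaks (medians 20.1 and 12.7 kb) and had higher scores (medians 1093 and 928). How far list length, width and score set these shares was not tested. Non-transduced-only peaks gave 31.6% (27.4 to 36.0) with MLL-AF9 and 10.5% (7.86 to 13.6) with HOXA9. In neither of the other lists were 63.2% of PML-RARa-only and 64.6% of non-transduced-only peaks. PML-RARa-only peaks that were listed in both HOXA9 and MLL-AF9 (74 peaks) had a median width of 17.6 kb and a median score of 1093, against 11.4 kb and 907 for the 580 listed in neither.

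Gaps in the peak numbers show where a list could have left out a call. The PML-RARa list held 1772 of 2124 numbers (83.4%) and the non-transduced list 1332 of 1766 (75.4%), and in both the numbers ran in order along the chromosomes. At 400 of the 918 PML-RARa-only peaks (43.6%, interval 40.3 to 46.9) the non-transduced numbering ran on without a gap, so no numbered non-transduced call was left out there. At the other 518 at least 1 number was missing, and 434 non-transduced numbers were missing in all. Of the 478 non-transduced-only peaks, 271 (56.7%, interval 52.1 to 61.2) lay where no PML-RARa number was missing.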

How the data were processed

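H2AK119Ub was mapped by ChIP-seq, and 1 peak list per immunoprecipitated library was analysed; the input was not analysed here. Reads were processed with Bowtie and MACS2 on genome build mm9, per the submitters' processing notes. The sources used here give neither versions nor settings. The deposited lists have 5 columns and no header, and the score of each peak is the authors' value, of unstated scale and at least 700 in both lists. Coordinates follow the BED convention and are printed 1-based.

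Matching, one-to-one pairs, edge-to-edge distances and missing peak numbers were computed with Python 3.11.15, numpy 2.4.6, pandas 2.3.3 and scipy 1.17.1, and figures drawn with matplotlib 3.10.9. Simulated lists were used to test the code. Shares have exact Clopper-Pearson and medians exact order-statistic 95% intervals; ties in score quartiles were broken by list order. Regions were named by rank within rules of score, width, width ratio, number of partners and distance. The members, rules and loci were chosen with earlier results of these data known, and the runs, the loci and the use of missing numbers were added after the lists were seen. The gene lists planned for an mm9 annotation were not used. Alternatives were stricter or equal-length lists, other match rules, merging of close peaks and other distances.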

Additional observations from a re-analysis of the deposited data

How the results depend on the processing

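With the upper 75% of each list by score, 45.6% of PML-RARa and 60.7% of non-transduced peaks were matched, and 11.8% of PML-RARa-only and 17.8% of non-transduced-only peaks lay within 50 kb of a matched peak. With the upper 50% these values were 40.6%, 54.2%, 7.03% and 9.84%, and the PML-RARa peak was the wider one in 52.3% of pairs (interval 46.7 to 57.8). With the best 1000 peaks of each list they were 51.0%, 51.7%, 9.80% and 14.3%, and the covered length ratio turned to 0.928. The matched shares of the 2 lists are then alike by construction, since matching was mostly one-to-one and the lists were equally long. Nearness within 10 kb gave 6.32% of PML-RARa-only and 8.37% of non-transduced-only peaks, and within 200 kb 36.3% and 46.9%. The other 26 values computed under these and the remaining settings stayed within the interval of the reported value, or within 1.5 times for covered length. Among these were all values for a shared stretch of at least 50% of the shorter peak, for gaps of up to 1000 bp and for merging within 1000 bp. The median width ratio of the pairs ran from 1.02 to 1.03, and with the upper 50% its interval (0.986 to 1.06) included 1. The cause of these shifts was not tested, and fewer peaks enter the stricter lists. No paired analysis was possible because each group had 1 library. Depth is unknown, and peak number depends on it.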

Other observations

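Short breaks between neighbouring peaks of a list rarely fell at the same place in both libraries. PML-RARa had 112 breaks of at most 2 kb (median 1002.5 bp, shortest 803 bp) and the non-transduced library 93 (median 1009 bp, shortest 805 bp). Only 8 PML-RARa breaks (7.14%, exact 95% interval 3.13 to 13.6) overlapped a non-transduced break, among them that of 940 bp at HoxA and 1 at HoxD. A further 31 lay inside a non-transduced peak, including another HoxA break between 52252997 and 52254357. Of the non-transduced breaks, 8 overlapped a PML-RARa break and 32 lay inside a PML-RARa peak. At the remaining 73 PML-RARa and 53 non-transduced breaks, the other list had neither a short break nor a peak enclosing the break. The share of 7.14% counts these breaks as well. The breaks were examined after the lists had been seen.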
